A study of Homo sapiens with 9 samples.

Results

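The 35 genes described here act in mitosis: 7 spindle checkpoint proteins (BUB1, BUB1B, BUB3, MAD1L1, MAD2L1, TTK and ZWINT), 5 mitotic kinases, 3 cyclins, 3 other proteins of the chromosomal passenger complex, 4 kinetochore proteins, 4 proteins of anaphase onset, 5 spindle assembly proteins, 3 proteins of the spindle midzone and cytokinesis, and the topoisomerase TOP2A. They were chosen by name for their known roles, with earlier results of these data known. All 35 were measured, by 56 probe sets, among 11963 genes and 22215 human probe sets on the array. Each gene was represented by its probe set of highest mean level over the 9 arrays.

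The cells were MDA-MB-231, a long-established human line from a breast carcinoma that lacks hormone receptors and grows attached. There were 3 groups of 3 arrays each: paclitaxel-resistant cells kept in 7 nM paclitaxel, docetaxel-resistant cells kept in 2 nM docetaxel, and sensitive cells given neither drug. The sample descriptions give 1 µM verapamil, which blocks calcium channels and the drug efflux pump ABCB1, in the medium of all 3 groups, whereas the treatment protocol names it for the sensitive cells only. Total RNA came from 3 independent passages per group and was hybridised to Affymetrix HU133A arrays. Each resistance is represented by 1 line, so the p-values measure the spread between passages and not between independently selected lines. The drugs were used at different doses, so differences between the resistant groups are differences between these lines as cultured, not between the compounds at a matched dose.

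As background, paclitaxel and docetaxel are taxanes, which bind and stabilise microtubules. Cells with abnormal spindles are held in mitosis by the spindle checkpoint: unattached kinetochores recruit BUB1, BUB1B, BUB3, MAD1L1 and MAD2L1 under the kinase TTK, and the complex they form holds CDC20, the activator of the anaphase-promoting complex. Once the checkpoint is satisfied, CDC20 directs the destruction of securin (PTTG1) and cyclin B, separase (ESPL1) is freed to cut cohesin, and anaphase begins. Most of these genes are transcribed late in the cell cycle, from promoters that often carry a CCAAT box, bound by NF-Y, and a cell cycle homology region (CHR), bound by complexes of MuvB with B-MYB, FOXM1 or the repressor DREAM.

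Promoter sequence was available for 29 of the 35 genes in the RefSeq promoter table (GRCh38.p14), and the 250 bases before the annotated start were searched on both strands. The promoters of 6 members that passed the test in the most comparisons, with the smallest p for any difference among the 3 groups, are printed so that the spacing of the boxes can be seen beside the expression values below. Capitals mark matches to CCAAT, to the CHR letters TTTGAA or TTCGAA, or to the E2F letters TTGGCGC or TTCGCGC, in either orientation. Each is read 5′ to 3′ on the gene's own strand and ends at the base before the annotated start.
CDC20, chr1:43358731-43358980, plus strand: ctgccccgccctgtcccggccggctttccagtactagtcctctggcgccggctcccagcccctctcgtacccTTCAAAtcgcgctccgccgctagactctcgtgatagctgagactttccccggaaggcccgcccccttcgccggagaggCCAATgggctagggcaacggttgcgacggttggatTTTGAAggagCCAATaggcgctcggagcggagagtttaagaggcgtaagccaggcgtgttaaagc
ESPL1, chr12:53268049-53268298, plus strand: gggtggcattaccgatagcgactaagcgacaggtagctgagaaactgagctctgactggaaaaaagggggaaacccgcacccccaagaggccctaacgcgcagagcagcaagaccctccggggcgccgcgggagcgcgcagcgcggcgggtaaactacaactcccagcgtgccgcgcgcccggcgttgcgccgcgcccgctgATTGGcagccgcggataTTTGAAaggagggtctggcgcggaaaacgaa
NUSAP1, chr15:41332631-41332880, plus strand: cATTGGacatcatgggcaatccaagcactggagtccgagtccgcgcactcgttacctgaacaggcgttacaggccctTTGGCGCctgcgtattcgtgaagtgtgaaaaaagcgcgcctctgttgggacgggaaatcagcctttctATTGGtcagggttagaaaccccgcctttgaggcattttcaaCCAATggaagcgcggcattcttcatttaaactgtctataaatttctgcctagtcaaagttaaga
CCNB2, chr15:59104896-59105145, plus strand: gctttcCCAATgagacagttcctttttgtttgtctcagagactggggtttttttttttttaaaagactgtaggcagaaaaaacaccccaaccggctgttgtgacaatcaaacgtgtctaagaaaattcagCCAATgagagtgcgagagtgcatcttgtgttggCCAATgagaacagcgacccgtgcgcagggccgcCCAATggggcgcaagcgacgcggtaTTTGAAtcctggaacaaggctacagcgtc
KIF23, chr15:69414099-69414348, plus strand: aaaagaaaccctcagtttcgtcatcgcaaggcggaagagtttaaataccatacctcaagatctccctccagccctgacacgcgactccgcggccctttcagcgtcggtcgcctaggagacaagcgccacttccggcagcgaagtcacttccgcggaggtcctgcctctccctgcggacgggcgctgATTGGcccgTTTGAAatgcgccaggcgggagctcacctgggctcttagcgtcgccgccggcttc
AURKB, chr17:8210226-8210475, minus strand: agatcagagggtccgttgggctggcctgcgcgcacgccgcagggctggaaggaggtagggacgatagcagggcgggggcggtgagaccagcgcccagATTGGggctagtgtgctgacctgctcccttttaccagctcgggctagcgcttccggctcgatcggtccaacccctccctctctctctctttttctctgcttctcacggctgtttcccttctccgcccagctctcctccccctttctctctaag

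CDC20 has 2 CCAAT and 2 CHR matches in this window, CCNB2 has 4 CCAAT and 1 CHR, ESPL1 and KIF23 have 1 of each, and NUSAP1 has 3 CCAAT and 1 E2F match. The AURKB window shown belongs to the first of 2 annotated starts and holds 1 CCAAT match. A CCAAT match was found upstream of 25 of the 29 members (86.2%), against 42.4% of the measured genes in the table and 37% of all its 27305 genes. A CHR match was found for 16 members (55.2%), against 15.3% of the measured genes and 17.2% of all genes. Both stood together in 15 members (51.7%), against 6.07% of the measured genes and 6.24% of all. E2F letters were found for 5 members (17.2%), against 7.91% and 5.15%. In no member promoter did a CCAAT match overlap an E2F match; TTCGAA is its own reverse complement and was counted once. At the first-listed starts the CHR matches lay near the start, 12 of 19 within 50 bases of it (median distance 29 bases), and the 55 CCAAT matches lay at a median distance of 75 bases. The members that were higher and those that were lower in the resistant lines both include genes with CCAAT and CHR matches, as the CDC20, ESPL1, CCNB2 and KIF23 windows show. These matches describe letters in a window and not bound sites.

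**Figure D1:**
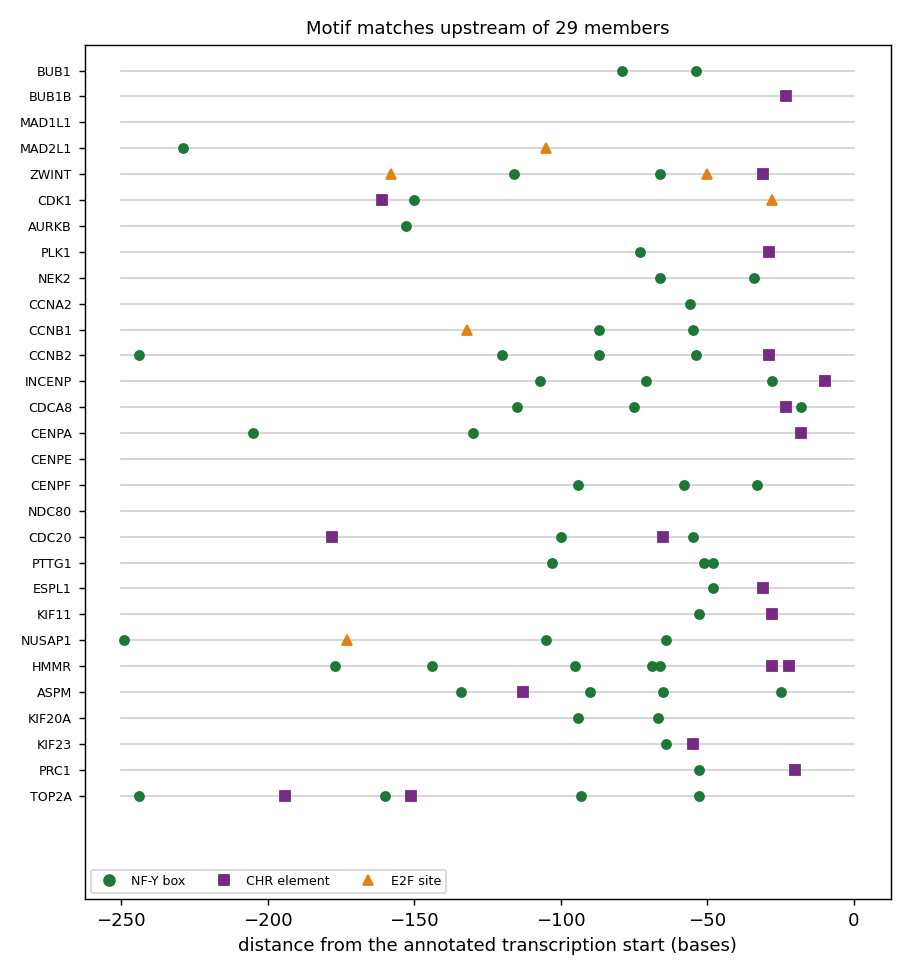
Matches to the CCAAT (labelled NF-Y box), CHR and E2F letters in the 250 bases upstream of the first annotated start of 29 members. The horizontal axis is the distance from that start in bases, each row is a gene and each mark is a match; most squares (CHR) lie near the start, with 12 of 19 within 50 bases.

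Levels are given as normalized intensity, the quantile-normalized brightness of a probe set, and differences are log2 differences of (intensity + 16) from limma, with their standard error and n = 3 arrays per group. Genes were called changed at a Benjamini-Hochberg adjusted p under 0.05 over all 11963 genes. Probe sets differ in brightness for reasons of design, so levels are compared between groups and not between genes. Differences of genes with low intensity are understated by the added 16. Median deposited intensity per array lay between 33.8 and 44.1, and between 24.0% and 27.0% of probe sets were under 16. No more than 0.234% of values were identical between any pair of arrays. The sensitive cells are the reference of both resistant lines, so the comparisons with them are not independent of each other.

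The 35 genes did not move one way. In paclitaxel-resistant cells 7 were higher than in sensitive cells, 5 were lower and 23 did not pass the test. That is 34.3% called, against 21.6% of all genes, and the median difference of the 35 was 0.05, against -0.02 over all genes. In docetaxel-resistant cells 6 were higher, 6 were lower and 23 did not pass, again 34.3% against 21% of all genes, with a median difference of -0.05 for the 35 and -0.05 for all genes. With only genes at or above the median level tested, 26 members remained. Of these, 13 were called in paclitaxel-resistant cells, beside 38.4% of all genes so tested, and 11 in docetaxel-resistant cells, beside 37.3%. Group values did not overlap for 19 of the 35 genes between paclitaxel-resistant and sensitive cells, against 34.8% of all genes, and for 15 between docetaxel-resistant and sensitive cells, against 36.8% of all genes. Between the resistant lines 2 genes were called (5.71% of the 35, against 1.96% of all genes). Both were higher in paclitaxel-resistant cells, where 0.978% of all genes were called higher and 0.986% lower, and 6 of the 35 did not overlap between the lines, against 20.4% of all genes. In RNA from whole cultures, a smaller share of cells in mitosis and less of a transcript per mitotic cell cannot be told apart. The share of all genes called higher was 10.8% in each line, and the share called lower was 10.7% in paclitaxel-resistant cells and 10.2% in docetaxel-resistant cells. At an unadjusted p under 0.05, 18 members differed in paclitaxel-resistant cells (against 32.4% of all genes), 15 in docetaxel-resistant cells (against 32.6%) and 5 between the lines (against 13.1%). The test for any difference among the 3 groups called 14 of the 35, against 24.1% of all genes. Tested one by one, the 56 probe sets gave 8 higher, 5 lower and 43 not called in paclitaxel-resistant cells (18.6% of all probe sets called), 5 higher, 7 lower and 44 not called in docetaxel-resistant cells (17.7%), and 1 higher and 55 not called between the lines (1.6%). MKI67, a general proliferation marker that is no member, was called in neither line, with differences of -0.05 in paclitaxel-resistant cells and 0.00 in docetaxel-resistant cells. The members called higher in both lines were BUB1B, CCNB2, NUSAP1 and KIF23, which lie on chromosome 15, and NDC80, on chromosome 18. PRC1, a member also on chromosome 15, was called in neither line (-0.12 in paclitaxel-resistant and 0.12 in docetaxel-resistant cells). Whether location played a part was not tested.

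**Figure D2:**
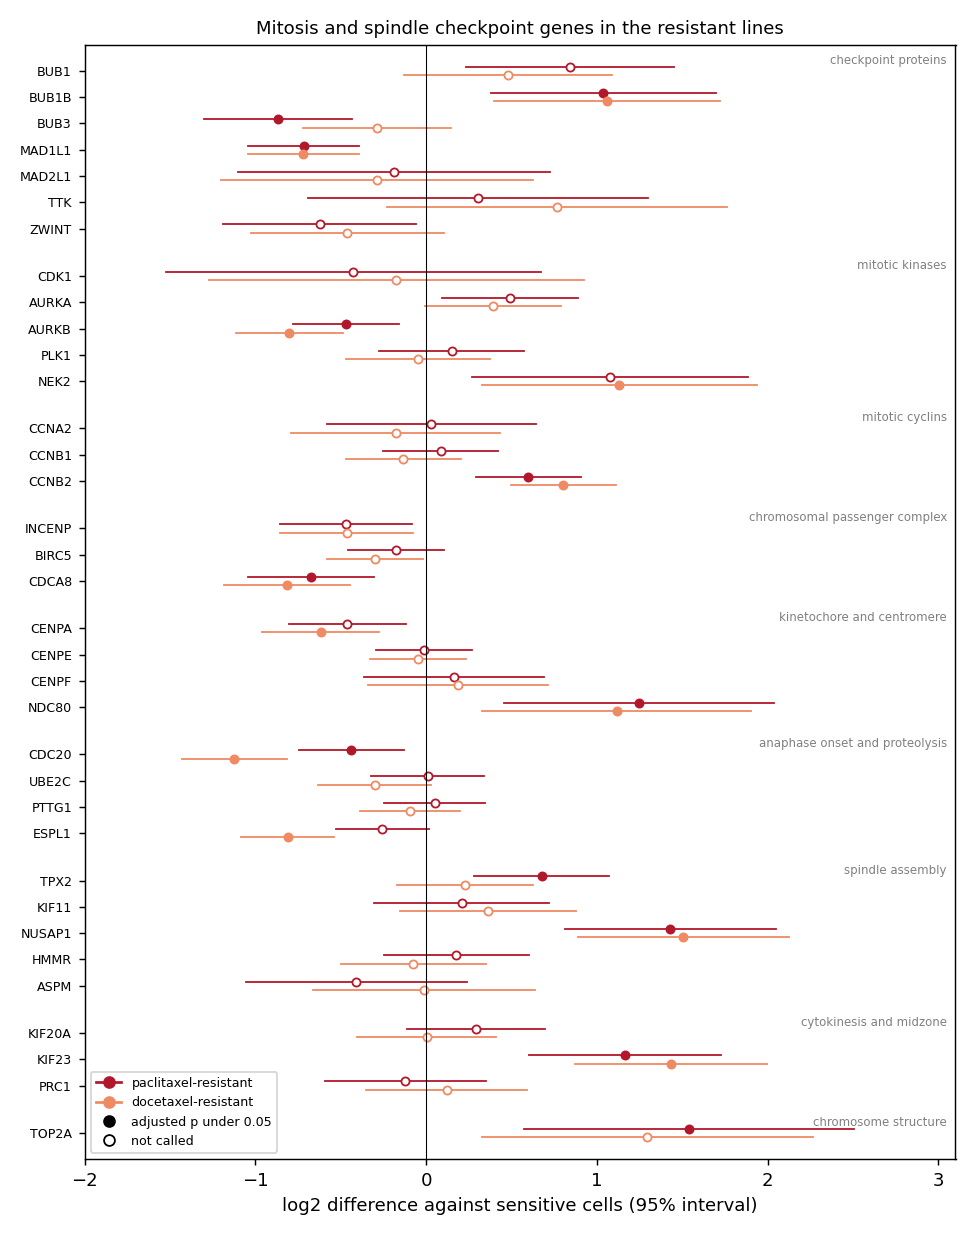
Log2 difference from sensitive cells of the 35 genes in paclitaxel-resistant cells (dark red) and docetaxel-resistant cells (light red), with 95% intervals from limma, grouped by role; filled points have an adjusted p under 0.05. The points fall on both sides of 0 within most roles, between -1.12 for CDC20 in docetaxel-resistant cells and 1.54 for TOP2A in paclitaxel-resistant cells.

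Among the checkpoint proteins, BUB1B was higher in both resistant lines, MAD1L1 was lower in both and BUB3 was lower in the paclitaxel-resistant line. BUB1B, which encodes BUBR1, the pseudokinase that holds CDC20 in the mitotic checkpoint complex, had 178, 123 and 110 in paclitaxel-resistant cells and 90.7, 141 and 196 in docetaxel-resistant cells, against 80.2, 31.0 and 70.7 in sensitive cells. Every resistant array was above every sensitive one. The difference was 1.04 ± 0.30 in paclitaxel-resistant cells (adjusted p = 0.0289), a 2.05-fold change, and 1.06 ± 0.30 in docetaxel-resistant cells (adjusted p = 0.0273). The paclitaxel-resistant call for BUB1B was lost without the first or second paclitaxel-resistant or the second sensitive array (adjusted p up to 0.112), and the docetaxel-resistant call without the second or the third docetaxel-resistant or the second sensitive array (adjusted p up to 0.113). The paclitaxel-resistant call was also lost without between-array normalization (adjusted p = 0.0710) and with 64 added before the logarithm (0.0530). With 1 added, neither call held (0.0632 in paclitaxel-resistant and 0.0623 in docetaxel-resistant cells).

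MAD1L1, which anchors MAD2 at unattached kinetochores, had 149, 186 and 208 in paclitaxel-resistant cells and 172, 196 and 171 in docetaxel-resistant cells, against 276, 335 and 307 in sensitive cells. The resistant values all lay below the sensitive ones and close to each other. It fell by 0.72 in both lines (differences of -0.72 ± 0.15 with adjusted p = 0.0051 in paclitaxel-resistant cells and -0.72 ± 0.15 with adjusted p = 0.00532 in docetaxel-resistant cells), and neither call was lost on leaving out any 1 array; the docetaxel-resistant call was lost (adjusted p = 0.0563) without the pair of arrays of lowest and highest median intensity. BUB3, which brings BUB1 and BUBR1 to kinetochores, had 520, 638 and 609 in paclitaxel-resistant cells and 794, 835 and 1048 in docetaxel-resistant cells, against 1443, 823 and 1071 in sensitive cells. Its paclitaxel-resistant values were the lowest of the 9, with no overlap with either other group, and docetaxel-resistant values overlapped the sensitive ones. BUB3 fell in paclitaxel-resistant cells (-0.87 ± 0.20, adjusted p = 0.00869) and was not called in docetaxel-resistant cells (-0.29 ± 0.20, 95% interval -0.72 to 0.15); the lines were not called different from each other (-0.58, adjusted p = 0.191). Its 3 other probe sets gave -0.71, -0.36 and -0.09 in the paclitaxel-resistant line, none called, and the mean over its probe sets was not called (-0.51, adjusted p = 0.187).

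The remaining checkpoint proteins were not called. BUB1, a checkpoint kinase that marks centromeric chromatin, had 136, 87.8 and 87.2 in paclitaxel-resistant cells and 52.4, 79.0 and 102 in docetaxel-resistant cells, against 74.8, 27.5 and 55.7 in sensitive cells. Its paclitaxel-resistant arrays were all above the sensitive ones, and the difference of 0.84 ± 0.28 (95% interval 0.23 to 1.45) had an adjusted p of 0.0511, which passed without the first or the third docetaxel-resistant or the first sensitive array. In docetaxel-resistant cells it was 0.48 ± 0.28. Without the second sensitive array the BUB1 differences were 0.55 in paclitaxel-resistant cells (not called; adjusted p up to 0.181 over the arrays left out in turn) and 0.18 in docetaxel-resistant cells (adjusted p = 0.688). MAD2L1, which encodes MAD2, the protein that binds CDC20 directly, had 181, 85.4 and 89.6 in paclitaxel-resistant cells and 64.9, 93.8 and 178 in docetaxel-resistant cells, against 248, 68.2 and 125 in sensitive cells. The groups overlapped widely, so its differences of -0.19 ± 0.42 in paclitaxel-resistant cells and -0.29 ± 0.42 in docetaxel-resistant cells are given with wide 95% intervals (-1.10 to 0.73 in paclitaxel-resistant and -1.20 to 0.63 in docetaxel-resistant cells). TTK, also called MPS1, the kinase at the head of the checkpoint, had 29.7, 9.31 and 9.67 in paclitaxel-resistant cells and 6.80, 21.1 and 76.6 in docetaxel-resistant cells, against 21.4, 0.237 and 10.1 in sensitive cells. These values are near the low end of the arrays and overlap, with differences of 0.30 ± 0.45 in paclitaxel-resistant cells and 0.77 ± 0.45 in docetaxel-resistant cells. ZWINT, a kinetochore protein that recruits the RZZ complex, differed by -0.62 ± 0.26 in paclitaxel-resistant cells (adjusted p = 0.116) and -0.46 ± 0.26 in docetaxel-resistant cells (adjusted p = 0.247); without the second sensitive array both passed (adjusted p = 0.0110 in paclitaxel-resistant and 0.0291 in docetaxel-resistant cells). Leaving out another array moved the ZWINT difference to as little as -0.47 in paclitaxel-resistant cells (adjusted p up to 0.319) and -0.29 in docetaxel-resistant cells (adjusted p up to 0.528).

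Among the mitotic kinases, AURKB was lower in both resistant lines and NEK2 passed the test as higher in the docetaxel-resistant line. AURKB is the kinase of the chromosomal passenger complex, which corrects faulty attachments of kinetochores to microtubules. It had 573, 723 and 742 in paclitaxel-resistant cells and 520, 585 and 500 in docetaxel-resistant cells, against 874, 1005 and 952 in sensitive cells. All 6 resistant arrays were below all sensitive ones. The fall was 0.47 (-0.47 ± 0.14, adjusted p = 0.0342) in paclitaxel-resistant cells, a call lost without the first or second paclitaxel-resistant, the first docetaxel-resistant, or the second or the third sensitive array (adjusted p up to 0.130). That call was also lost with 1 added before the logarithm (adjusted p = 0.0701) and with only the compared groups in the fit (0.0648). Leaving out the pair of arrays of lowest and highest median intensity ended it too (0.0985). In docetaxel-resistant cells the difference was -0.80 ± 0.14 (adjusted p = 0.00223), which kept its call under every alternative tried. The difference between the lines (0.33 ± 0.14, adjusted p = 0.338) was not called.

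NEK2, which separates centrosomes at mitotic entry, had 138, 105 and 120 in paclitaxel-resistant cells and 79.0, 98.7 and 246 in docetaxel-resistant cells, against 81.3, 24.3 and 53.1 in sensitive cells. The docetaxel-resistant values overlapped the sensitive ones and one array was far above the others. Its call in docetaxel-resistant cells (1.13 ± 0.37, adjusted p = 0.0489) was lost on leaving out any 1 of 7 arrays, all but the first docetaxel-resistant and first sensitive ones, and without the third docetaxel-resistant array the difference was 0.68 (adjusted p = 0.177). In paclitaxel-resistant cells the difference of 1.08 ± 0.37 was not called (adjusted p = 0.0585), but passed without the first or the third docetaxel-resistant or the first sensitive array (adjusted p down to 0.0144), and was 0.74 without the second sensitive array (adjusted p = 0.187). A second NEK2 probe set gave -0.11 in paclitaxel-resistant cells and 0.32 in docetaxel-resistant cells. AURKA, the centrosomal Aurora kinase, had 1132, 1157 and 999.8 in paclitaxel-resistant cells and 923, 959 and 1198 in docetaxel-resistant cells, against 1002, 619 and 744 in sensitive cells. Only the first sensitive array reached the range of the resistant ones, and neither the difference of 0.49 ± 0.18 in paclitaxel-resistant cells (adjusted p = 0.0763) nor that of 0.39 ± 0.18 in docetaxel-resistant cells (adjusted p = 0.157) was called. Without that array both passed (adjusted p = 0.0153 in paclitaxel-resistant and 0.0314 in docetaxel-resistant cells). Without the second sensitive array they were 0.33 in paclitaxel-resistant cells (adjusted p = 0.244) and 0.23 in docetaxel-resistant cells (adjusted p = 0.438).

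PLK1, the Polo-like kinase of mitotic entry and spindle formation, had 196, 339 and 358 in paclitaxel-resistant cells and 248, 260 and 240 in docetaxel-resistant cells, against 258, 272 and 245 in sensitive cells. Its differences were 0.15 ± 0.19 in paclitaxel-resistant cells (95% interval -0.27 to 0.57) and -0.05 ± 0.19 in docetaxel-resistant cells (-0.47 to 0.38). CDK1, the cyclin-dependent kinase that drives mitosis, had 239, 85.8 and 66.4 in paclitaxel-resistant cells and 73.9, 130 and 260 in docetaxel-resistant cells, against 306, 96.3 and 128 in sensitive cells. One array in each group was well above the other arrays of its group, and CDK1 had the largest standard error of the 35 genes (-0.43 ± 0.50 in paclitaxel-resistant cells and -0.17 ± 0.50 in docetaxel-resistant cells).

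CCNB2 was the one mitotic cyclin that was called. It encodes cyclin B2, a partner of CDK1, and had 1073, 963 and 1107 in paclitaxel-resistant cells and 1132, 1185 and 1314 in docetaxel-resistant cells, against 774, 594 and 698 in sensitive cells. The 3 groups did not overlap. It rose by 0.60 ± 0.14 in paclitaxel-resistant cells (1.51-fold, adjusted p = 0.00969) and by 0.80 ± 0.14 in docetaxel-resistant cells (1.75-fold, adjusted p = 0.00198), and both calls held under every alternative tried. CCNB1, the gene of cyclin B1, had 1033, 1015 and 1111 in paclitaxel-resistant cells and 820, 902 and 991 in docetaxel-resistant cells, against 1229, 910 and 869 in sensitive cells. Its differences from sensitive cells, 0.09 ± 0.15 in paclitaxel-resistant cells (95% interval -0.25 to 0.42) and -0.13 ± 0.15 in docetaxel-resistant cells (-0.47 to 0.20), were within the spread of the sensitive arrays. CCNA2, the gene of cyclin A2, was not called. It differed by 0.03 in paclitaxel-resistant cells (95% interval -0.58 to 0.64) and -0.18 in docetaxel-resistant cells (-0.79 to 0.43). A second CCNA2 probe set gave 0.44 in paclitaxel-resistant cells and 0.18 in docetaxel-resistant cells, and was not called.

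Of the other proteins of the chromosomal passenger complex, CDCA8 was lower in both resistant lines. CDCA8, or borealin, which targets the complex to centromeres, had 195, 228 and 299 in paclitaxel-resistant cells and 194, 232 and 217 in docetaxel-resistant cells, against 344, 382 and 445 in sensitive cells. No resistant array reached a sensitive one. It fell by 0.68 in paclitaxel-resistant cells (-0.68 ± 0.17, adjusted p = 0.0137) and by 0.82 in docetaxel-resistant cells (-0.82 ± 0.17, adjusted p = 0.00524). The paclitaxel-resistant call was lost without the first paclitaxel-resistant or the third sensitive array (adjusted p up to 0.0584). INCENP, the scaffold of the complex, differed by -0.47 ± 0.18 in both lines (adjusted p = 0.0833 in paclitaxel-resistant and 0.0873 in docetaxel-resistant cells). BIRC5, or survivin, differed by -0.17 in paclitaxel-resistant cells and -0.30 in docetaxel-resistant cells. Neither gene was called, although for both every resistant array was below every sensitive one. INCENP passed without the first sensitive array (adjusted p = 0.0471 in paclitaxel-resistant and 0.0472 in docetaxel-resistant cells), and without the third it differed by -0.26 in both lines (adjusted p = 0.27 in paclitaxel-resistant and 0.268 in docetaxel-resistant cells). Of the other BIRC5 probe sets, one gave -0.57 in paclitaxel-resistant cells (adjusted p = 0.048) and -0.56 in docetaxel-resistant cells (adjusted p = 0.052), and another gave -0.0024 in paclitaxel-resistant cells (adjusted p = 0.995) and -0.22 in docetaxel-resistant cells (adjusted p = 0.44).

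Of the 4 kinetochore and centromere genes, NDC80 was higher in both lines, CENPA was lower in docetaxel-resistant cells, and CENPE and CENPF were not called. NDC80, whose protein forms the microtubule-binding core of the kinetochore, had 75.9, 38.2 and 29.5 in paclitaxel-resistant cells and 15.6, 38.5 and 84.3 in docetaxel-resistant cells, against 10.2, 6.91 and 12.4 in sensitive cells. Every resistant array was above the sensitive ones, which were near the low end of the scale. It rose by 1.25 ± 0.36 (adjusted p = 0.0284) in paclitaxel-resistant cells and by 1.12 ± 0.36 (adjusted p = 0.0474) in docetaxel-resistant cells, where the value was 0.68 without the third array (adjusted p = 0.173). The paclitaxel-resistant call for NDC80 was lost without the first or second paclitaxel-resistant array or any sensitive array (adjusted p up to 0.114), and the docetaxel-resistant call without any 1 array but the first of either resistant line. With 1 added before the logarithm in place of 16 the NDC80 differences were 2.09 in paclitaxel-resistant cells and 1.86 in docetaxel-resistant cells, and with 64 they were 0.58 in paclitaxel-resistant cells and 0.53 in docetaxel-resistant cells. Neither was called with 64 (adjusted p = 0.0976 in paclitaxel-resistant and 0.127 in docetaxel-resistant cells). Nor was either called without between-array normalization (0.0605 in paclitaxel-resistant and 0.0708 in docetaxel-resistant cells). CENPA, the histone H3 variant of centromeres, had 125, 181 and 161 in paclitaxel-resistant cells and 144, 134 and 132 in docetaxel-resistant cells, against 202, 200 and 257 in sensitive cells. All resistant arrays were below the sensitive ones, and the fall was called in docetaxel-resistant cells (-0.62 ± 0.16, adjusted p = 0.0156) but not in paclitaxel-resistant cells (-0.46 ± 0.16, adjusted p = 0.0559; 0.0430 without the second paclitaxel-resistant array and up to 0.200 without another). The docetaxel-resistant call was lost without the second or the third docetaxel-resistant or the third sensitive array (adjusted p up to 0.0606). It was also lost without between-array normalization (adjusted p = 0.0866) and without the pair of arrays of lowest and highest median intensity (0.0606). CENPF, a large kinetochore protein, differed by 0.16 in paclitaxel-resistant cells and 0.19 in docetaxel-resistant cells, and CENPE, a kinetochore motor, was between 1.33 and 5.08 on all 9 arrays, at the low end of the scale.

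CDC20 and ESPL1, which act at the start of anaphase, were lower in docetaxel-resistant cells and were the 2 members called between the resistant lines. CDC20 had 690, 749 and 936 in paclitaxel-resistant cells and 444, 500 and 506 in docetaxel-resistant cells, against 1067, 1045 and 1097 in sensitive cells. The groups did not overlap, with paclitaxel-resistant cells between the other groups. In docetaxel-resistant cells it fell by 1.12 (-1.12 ± 0.14, adjusted p = 0.000251), a 2.18-fold change, and the call held under all 21 alternatives that kept its probe set. In paclitaxel-resistant cells the difference was -0.44 ± 0.14 (adjusted p = 0.046), a call that was lost on leaving out any 1 array except the third paclitaxel-resistant one (adjusted p up to 0.159). Paclitaxel- minus docetaxel-resistant cells gave 0.68 ± 0.14 (95% interval 0.38 to 0.99, adjusted p = 0.031), and this call was lost without the second or the third paclitaxel-resistant array or any docetaxel-resistant array (adjusted p up to 0.134).

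ESPL1, the gene of separase, had 242, 247 and 283 in paclitaxel-resistant cells and 177, 178 and 156 in docetaxel-resistant cells, against 304, 320 and 307 in sensitive cells. As for CDC20, the 3 groups did not overlap and the paclitaxel-resistant arrays lay in the middle. It fell by 0.81 in docetaxel-resistant cells (-0.81 ± 0.12, adjusted p = 0.000958), and -0.26 ± 0.12 in paclitaxel-resistant cells was not called (95% interval -0.53 to 0.02). The difference between the lines was 0.55 ± 0.12 (adjusted p = 0.0475) and lost its call on leaving out any 1 of the 9 arrays. A second ESPL1 probe set gave -0.72 (adjusted p = 0.0034) in docetaxel-resistant cells and 0.41 between the lines. The other anaphase genes were not called: UBE2C, the ubiquitin-conjugating enzyme of the anaphase-promoting complex, differed by 0.01 in paclitaxel-resistant cells and -0.30 in docetaxel-resistant cells, and PTTG1, securin, by 0.05 in paclitaxel-resistant cells and -0.09 in docetaxel-resistant cells.

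**Figure D3:**
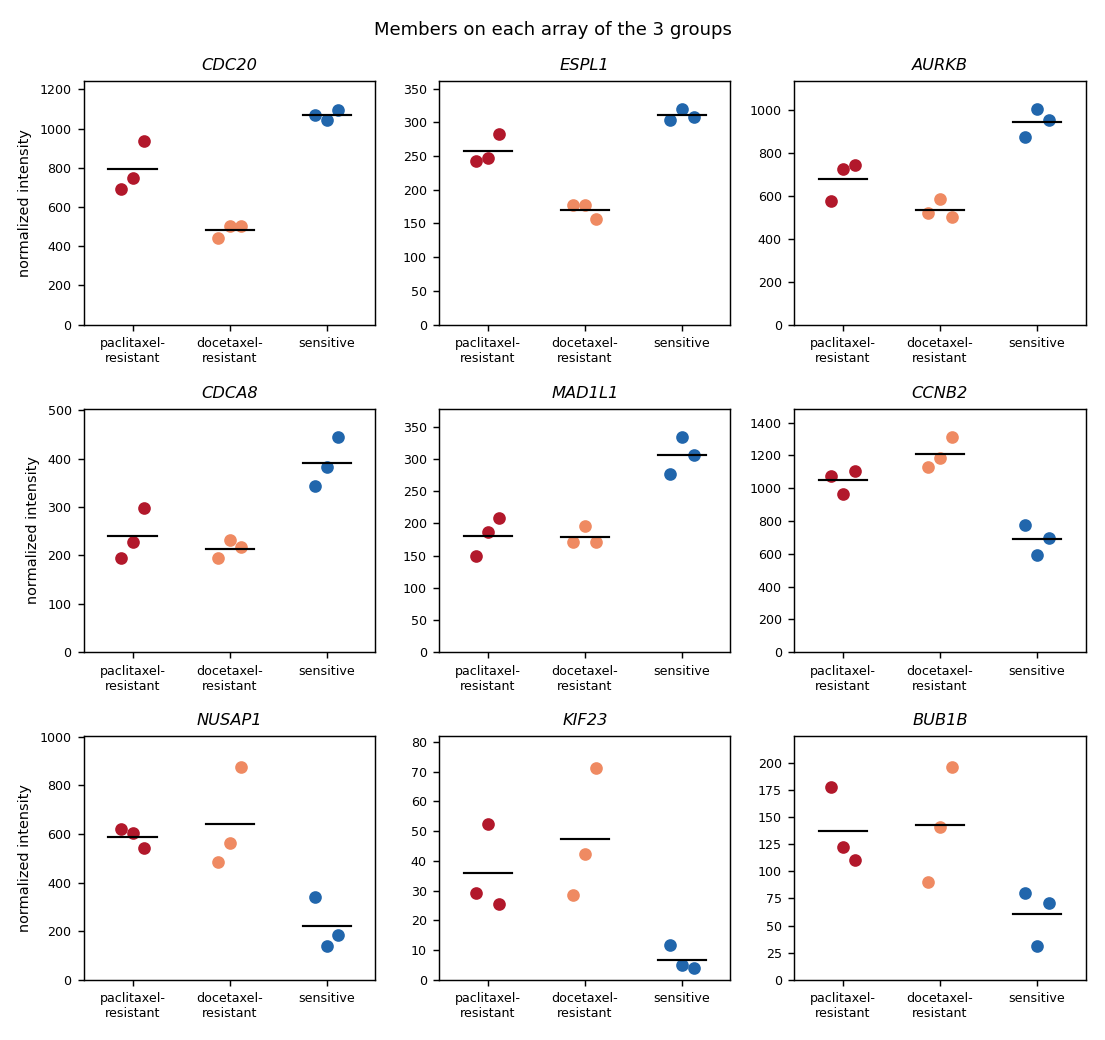
Normalized intensity of 9 members on each array (points) with the mean of each group (line), for paclitaxel-resistant, docetaxel-resistant and sensitive cells. CDC20 and ESPL1 separate the 3 groups, with docetaxel-resistant cells lowest, while NUSAP1, KIF23 and BUB1B are above the sensitive arrays in both lines.

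Spindle assembly genes were higher where they were called. NUSAP1, a protein that bundles and stabilises spindle microtubules, had 619, 606 and 542 in paclitaxel-resistant cells and 484, 561 and 875 in docetaxel-resistant cells, against 342, 141 and 184 in sensitive cells. All resistant arrays were above all sensitive ones. It rose by 1.43 ± 0.28 in paclitaxel-resistant cells (2.70-fold, adjusted p = 0.00388) and by 1.51 ± 0.28 in docetaxel-resistant cells (2.84-fold, adjusted p = 0.00302), and both calls held under every alternative. Its second probe set gave smaller differences, 0.44 in paclitaxel-resistant cells and 0.58 in docetaxel-resistant cells, and was not called; with the mean over both, the paclitaxel-resistant difference was 0.94. TPX2, which activates AURKA and nucleates spindle microtubules, had 974, 1335 and 1379 in paclitaxel-resistant cells and 844, 839 and 985 in docetaxel-resistant cells, against 844, 599 and 850 in sensitive cells. All its paclitaxel-resistant values lay above the sensitive ones, while the docetaxel-resistant values met both other groups. It rose in paclitaxel-resistant cells (0.68 ± 0.18, adjusted p = 0.0198) and was not called in docetaxel-resistant cells (0.23 ± 0.18, 95% interval -0.17 to 0.62), with no call between the lines (0.45 ± 0.18, adjusted p = 0.296). The TPX2 call was lost without the second or the third paclitaxel-resistant or the second sensitive array (adjusted p up to 0.0760). It was also lost without between-array normalization (adjusted p = 0.0544) and with median scaling (0.0507). Leaving out the pair of arrays of lowest and highest median intensity ended it too (0.0672). KIF11, the kinesin that pushes spindle poles apart, HMMR, a spindle-associated hyaluronan receptor, and ASPM, a spindle pole protein, were not called. Their differences were 0.21, 0.18 and -0.41 in paclitaxel-resistant cells, and 0.36, -0.07 and -0.01 in docetaxel-resistant cells.

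At the spindle midzone, KIF23 was higher in both lines. KIF23, the kinesin of the centralspindlin complex that builds the cleavage site, had 29.3, 52.6 and 25.4 in paclitaxel-resistant cells and 28.4, 42.4 and 71.1 in docetaxel-resistant cells, against 11.6, 4.86 and 3.90 in sensitive cells. The sensitive arrays were near the low end of the scale and below every resistant array. It rose by 1.16 ± 0.26 (adjusted p = 0.0072) in paclitaxel-resistant cells and by 1.43 ± 0.26 (adjusted p = 0.00235) in docetaxel-resistant cells, and both calls held under all 20 alternatives that kept its probe set. The size depends on what is added before the logarithm: with 1 in place of 16 the differences were 2.30 in paclitaxel-resistant cells and 2.66 in docetaxel-resistant cells, and with 64 they were 0.49 in paclitaxel-resistant cells and 0.64 in docetaxel-resistant cells. KIF20A, the midzone kinesin, differed by 0.29 in paclitaxel-resistant cells and 0.00 in docetaxel-resistant cells, and PRC1, which bundles midzone microtubules, by -0.12 in paclitaxel-resistant cells and 0.12 in docetaxel-resistant cells.

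TOP2A, which untangles sister chromatids, had 182, 129 and 70.7 in paclitaxel-resistant cells and 46.2, 75.8 and 246 in docetaxel-resistant cells, against 38.7, 28.5 and 25.6 in sensitive cells. All resistant arrays were above the sensitive ones, across a wide range. It rose by 1.54 ± 0.44 in paclitaxel-resistant cells (2.91-fold, adjusted p = 0.0274) and the 1.30 ± 0.44 in docetaxel-resistant cells was not called (95% interval 0.33 to 2.26, adjusted p = 0.0588). Leaving out 1 array moved that difference between 0.69 without the third docetaxel-resistant array (adjusted p = 0.186) and 1.74 without the first (adjusted p = 0.0158). The paclitaxel-resistant call was lost without the first or second paclitaxel-resistant or the second or the third sensitive array (adjusted p up to 0.109), and with 64 added before the logarithm the difference was 0.97 and not called (adjusted p = 0.0869). It was also lost without between-array normalization (0.0507) and with replicate number in the model (0.0524). A second probe set gave 1.46 in paclitaxel-resistant cells (adjusted p = 0.036) and 1.34 in docetaxel-resistant cells (adjusted p = 0.053).

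The members' levels also differed between arrays of the same group. The third docetaxel-resistant array was the highest of the 9 for 12 members, among them TTK, NEK2, NDC80, TOP2A, NUSAP1 and KIF23, and the first sensitive array was the highest for 11. The second sensitive array was the lowest of the 9 for 12 members. Taking each gene against its own mean over the 9 arrays, the median of the 35 was 0.06, 0.05 and 0.09 on the paclitaxel-resistant arrays and -0.22, -0.10 and 0.24 on the docetaxel-resistant arrays, against 0.19, -0.26 and -0.07 on the sensitive arrays. Thus the paclitaxel-resistant arrays were alike in this median and the other groups each held a high and a low array. The 89 other mitotic genes gave medians of 0.02, -0.03 and 0.06 in paclitaxel-resistant cells and -0.14, 0.02 and 0.14 in docetaxel-resistant cells, against 0.06, -0.19 and -0.09 in sensitive cells, while the medians of all genes stayed between -0.08 and 0.07.

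The spread fell mainly on some genes. CDK1 had the widest range within groups (1.59 log2 units on average), followed by TTK (1.36), MAD2L1 (1.29), TOP2A (1.22), NEK2 (1.03) and NDC80 (1.00), whereas ESPL1 (0.15), BIRC5 (0.19), PTTG1 (0.21) and CDC20 (0.23) had narrow ranges. The median range of the 35 genes was 0.43 in paclitaxel-resistant cells and 0.37 in docetaxel-resistant cells, against 0.47 in sensitive cells; the corresponding medians over all genes were 0.33, 0.30 and 0.39. Accordingly the median standard error was 0.19 for the 35 genes and 0.16 for all genes. The deposited median intensities were 42.0, 37.6 and 38.8 in paclitaxel-resistant cells and 39.4, 41.4 and 44.1 in docetaxel-resistant cells, against 36.3, 33.8 and 39.3 in sensitive cells, so the array most often highest for the members, the third docetaxel-resistant one, and that most often lowest, the second sensitive one, also had the highest and lowest medians before normalization. The part of this in the members' values was not tested beyond leaving both arrays out and fitting a covariate. Without both arrays NEK2 differed by 0.35 in docetaxel-resistant cells and BUB1B by 0.50 (adjusted p = 0.241), and neither was called. The covariate was the main axis of variation within groups, with the third docetaxel-resistant array (-0.46) and the second sensitive array (0.51) at its ends. With the covariate, 17 members were called in paclitaxel-resistant and 16 in docetaxel-resistant cells, beside 28.8% of all genes in each. It was computed from these same arrays, so a narrower spread is built in. The 3′ minus 5′ log2 signal of GAPDH, a sign of RNA quality, was 0.20, 0.094 and 0.10 in paclitaxel-resistant cells and 0.13, 0.070 and 0.0067 in docetaxel-resistant cells, against 0.039, 0.025 and 0.014 in sensitive cells.

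**Figure D4:**
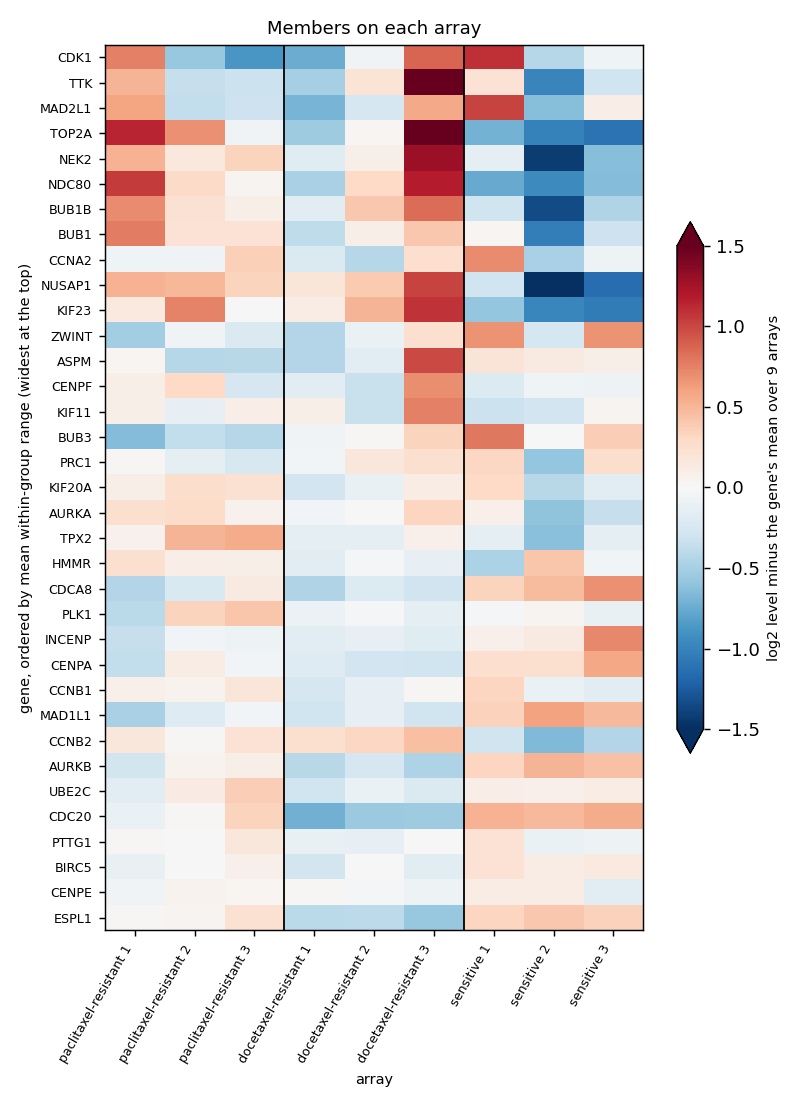
Log2 level of each of the 35 genes minus its mean over the 9 arrays, for the paclitaxel-resistant, docetaxel-resistant and sensitive arrays; genes are ordered by their mean range within groups, widest at the top (CDK1, 1.59) and narrowest at the bottom (ESPL1, 0.15). The third docetaxel-resistant array is red and the second sensitive array blue for many of the upper genes.

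**Figure D5:**
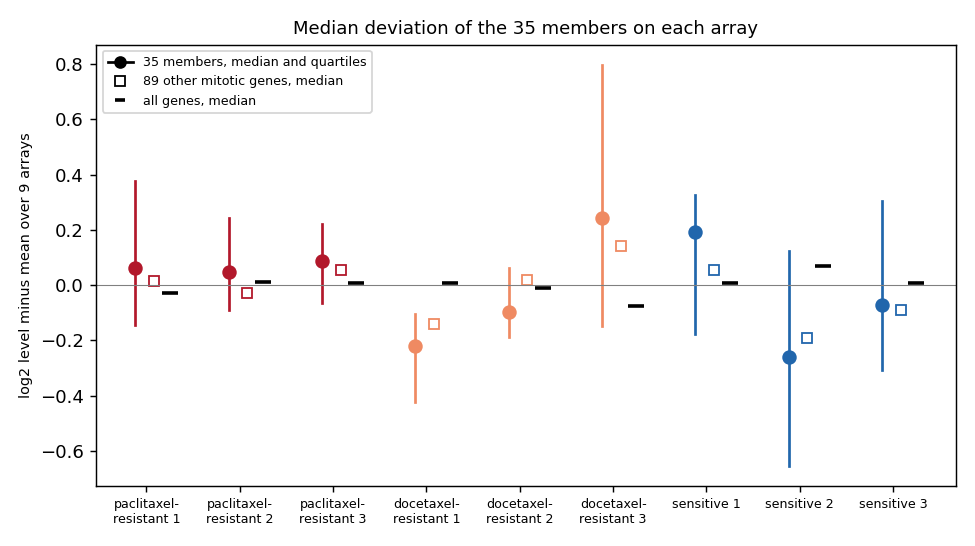
Median over the 35 genes of the log2 level minus each gene's mean over the 9 arrays (points; bars run between the quartiles), with the medians of the 89 other mitotic genes (squares) and of all genes (dashes). The 35 genes' medians lie between -0.26 on the second sensitive array and 0.24 on the third docetaxel-resistant array.

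A longer list of 107 other mitotic genes, 89 of them measured, was read in the same way, beside background shares of 21.6% and 21%. In paclitaxel-resistant cells 8 were higher, 7 lower and 74 not called (16.9%, median difference 0.07), and in docetaxel-resistant cells 6 were higher, 10 lower and 73 not called (18%, median 0.07). None of the 89 was called between the resistant lines by limma, where 1.96% of all genes were called. At an unadjusted p under 0.05 there were 9 of the 89, against 13.1% of all genes. By role, of 21 other kinetochore and checkpoint genes 2 were lower in each line and none was higher. Of 11 genes of the anaphase-promoting complex and its regulators, 2 were higher and 2 lower in paclitaxel-resistant cells. In docetaxel-resistant cells 1 of them was higher and 2 were lower. Of 19 mitotic entry regulators and transcription factors, 2 were higher and 1 lower in paclitaxel-resistant cells, and 2 each way in docetaxel-resistant cells. Of 6 other cytokinesis genes, 1 was higher in paclitaxel-resistant cells and none was called in docetaxel-resistant cells. Of 16 other motor and spindle genes, 3 were higher and 2 lower in paclitaxel-resistant cells, and 2 were higher and 4 lower in docetaxel-resistant cells. Of 16 cohesin and condensin genes, none was called by limma in paclitaxel-resistant cells (2 at an unadjusted p under 0.05) and 1 was higher in docetaxel-resistant cells.

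Of these, RBL2, or p130, the pocket protein of the DREAM repressor, had the largest difference, with 302, 217 and 188 in paclitaxel-resistant cells and 236, 218 and 288 in docetaxel-resistant cells, against 29.3, 33.6 and 53.8 in sensitive cells. It rose by 2.20 ± 0.21 in paclitaxel-resistant cells (adjusted p = 2.9e-05) and by 2.28 ± 0.21 in docetaxel-resistant cells (adjusted p = 2.59e-05). MAD2L1BP, or p31comet, which removes MAD2 from the checkpoint complex, fell in both lines (-0.81 ± 0.15 in paclitaxel-resistant and -0.94 ± 0.15 in docetaxel-resistant cells), as did ANAPC15, a subunit of the anaphase-promoting complex (-0.93 ± 0.15 in paclitaxel-resistant and -0.84 ± 0.15 in docetaxel-resistant cells). KIF2C, a kinesin that depolymerises microtubules, also fell in both (-0.57 ± 0.14 in paclitaxel-resistant and -0.99 ± 0.14 in docetaxel-resistant cells). CKAP5, a microtubule polymerase, rose in both (1.26 ± 0.19 in paclitaxel-resistant and 0.86 ± 0.19 in docetaxel-resistant cells), as did CDC23, a core subunit of the anaphase-promoting complex (0.84 ± 0.21 in paclitaxel-resistant and 1.05 ± 0.21 in docetaxel-resistant cells), and the kinase MELK (0.77 ± 0.22 in paclitaxel-resistant and 0.80 ± 0.22 in docetaxel-resistant cells). CKAP2, a spindle protein, rose in docetaxel-resistant cells (1.07 ± 0.29) and gave 0.70 ± 0.29 in paclitaxel-resistant cells (adjusted p = 0.12). The transcription factors FOXM1 (-0.44 in both lines, adjusted p = 0.118 in paclitaxel-resistant and 0.117 in docetaxel-resistant cells) and MYBL2, which encodes B-MYB (0.21 in paclitaxel-resistant and 0.17 in docetaxel-resistant cells), were not called.

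The labelled cell type was checked on marker genes. The epithelial keratins KRT18 (2811 to 3718) and KRT8 (924 to 1170) were bright on all 9 arrays, whereas CDH1 (35.6 to 120) and EPCAM (9.98 to 29.2) of the same epithelial list were low. Also bright was VIM (4618 to 8683), an intermediate filament gene of mesenchymal cells. The receptors ESR1 and PGR stayed at or under 56.3 and 12.2. None of the hormone receptor genes, ERBB2, the 4 blood and the 5 fibroblast markers was called in either comparison with sensitive cells by limma, nor had an unadjusted p under 0.05. Not all blood and fibroblast markers were low. Over the 9 arrays HBB lay between 295 and 507, CD53 between 87.9 and 137, and COL1A1 between 67.9 and 134. Lower were DCN (32.8 to 59.8) and CD3E (18.6 to 40.3), and PTPRC and LUM stayed at or under 11.8 and 4.13. Of the 5 mesenchymal-like markers, VIM fell in both lines (-0.60 in paclitaxel-resistant and -0.74 in docetaxel-resistant cells), EGFR rose (1.49 in paclitaxel-resistant and 1.56 in docetaxel-resistant cells) and CD44 fell in docetaxel-resistant cells (-0.54); AXL and CAV1 were not called. Of the 6 epithelial markers, KRT7 rose (0.87 in paclitaxel-resistant and 0.55 in docetaxel-resistant cells).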

How the data were processed

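RNA of 3 passages per group was hybridised to Affymetrix HU133A arrays. The deposited table holds linear intensity values, made with Affymetrix Expression Console 1.1.2 and PLIER, per the submitters' processing notes; of background and between-array steps, the sources used here say nothing. Of 22283 probe sets, 68 controls were left out; 19065 of the rest named 1 gene in GEO's platform annotation (19053 matched RefSeq), 1043 several and 2107 none. From the deposited intensity, log2(value + 16) was computed, quantile-normalized, reduced to the brightest probe set per gene (11963 genes, 4310 with several probe sets) and fitted over all 9 arrays with limma 3.58.1 in R 4.3.3 (6 residual and 5.40 prior degrees of freedom), with Benjamini-Hochberg adjustment over all genes in each comparison. A printed normalized intensity is 2 to the power of that value, minus 16. Precision is limited by the small number of arrays. The script was tested on simulated data.

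The 35 genes, the longer mitotic list and the markers were chosen with earlier results of these data known. Values on every array are given for members called in any comparison and for 10 key members fixed by name. By rule, up to 8 genes of the longer list are named, the called ones of largest difference. The transcription factors FOXM1 and MYBL2, which were not called, are named outside that rule. Of the longer list, 89 of 107 genes were measured. One probe set that names a member together with another gene was left out. Alternatives varied the added value, normalization, probe set choice, model and arrays (22 in all, 9 leaving out 1 array).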

Additional observations from a re-analysis of the deposited data

Results flagged for a closer look

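CDC20 and ESPL1 differed between the lines in their difference from sensitive cells, by limma's test of paclitaxel- minus docetaxel-resistant cells. For CDC20 the value was 0.68 ± 0.14 (adjusted p = 0.031): -0.44 against sensitive cells in the paclitaxel-resistant line and -1.12 in the docetaxel-resistant line. For ESPL1 it was 0.55 ± 0.12 (adjusted p = 0.0475): -0.26 in the paclitaxel-resistant line and -0.81 in the docetaxel-resistant line. The ESPL1 call was lost on leaving out any 1 array (adjusted p up to 0.166), and the CDC20 call on leaving out any docetaxel-resistant array or the second or the third paclitaxel-resistant array (up to 0.134).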

How the results depend on the processing

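Over 22 alternatives no called difference of the 35 genes changed sign. Of 26 calls (a member in a comparison), 11 held under all alternatives that kept the gene's probe set (20 to 22 of them), 13 when any 1 array was left out, and 15 were lost under at least 1; 13 uncalled differences passed under at least 1. Leaving out 1 array at a time, 6 to 14 members were called in paclitaxel-resistant and 8 to 13 in docetaxel-resistant cells against sensitive cells. With all arrays 12 were called in each. The shares of all genes called were then 15.8% to 22.6% in paclitaxel-resistant and 13.7% to 21.7% in docetaxel-resistant cells with 1 array left out. Without the first paclitaxel-resistant array, 6 members and 15.8% of all genes were called in paclitaxel-resistant cells. Between the lines 0 to 1 members were called, where 2 were with all arrays, beside 0.652% to 2.36% of all genes. Against sensitive cells, 7 members were called in paclitaxel-resistant cells without between-array normalization, beside 17.3% of all genes. Leaving out probe sets ending in _x_at or _s_at, which can share sequence with other genes, kept 23 members and called 7 in paclitaxel-resistant and 6 in docetaxel-resistant cells. The shares of all genes called were then 17.9% in paclitaxel-resistant and 17.1% in docetaxel-resistant cells. Between the lines the count by limma was 0 with 1 added before the logarithm (3 at an unadjusted p under 0.05), without between-array normalization (3), without those probe sets (3), with the replicate block (5) and without the 2 arrays whose medians were lowest and highest (7), against 5 unadjusted with all settings as reported. With the count at 0, between 0.652% and 1.31% of all genes were called. The count was 1 with median scaling, with the mean of a gene's probe sets, with trended, robust variances, with only the groups compared, and with all probe sets tested. There 1.88% to 2.36% of all genes were called. No pairing by replicate number was seen. Across genes, deviations of same-numbered samples correlated between -0.45 and 0.34, 3 of 9 over 0.1. In 5 of 18 settings of an array against another group, the array correlated best with its own number. Deviations from a group mean are tied to each other, so these correlations cannot show that the samples were unpaired. With the replicate block 11 members were called in each comparison with sensitive cells, beside 20% of all genes in paclitaxel-resistant and 19.2% in docetaxel-resistant cells. Over all genes, 1336 instead of 2510 were called in docetaxel-resistant cells without the 2 arrays whose medians were lowest and highest, and between the lines 78 to 622 instead of 235; without the shared-sequence probe sets 1495 and 1431 were called in paclitaxel-resistant and docetaxel-resistant cells. The cause was not tested. The arrays limit what can be seen of members near the low end of the scale (CENPE, ASPM, TTK, KIF23, NDC80).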

Other observations

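For some members the probe sets of a gene gave different sizes. A second AURKA probe set gave 0.46 in paclitaxel-resistant cells and 0.32 in docetaxel-resistant cells, beside 0.49 in paclitaxel-resistant cells and 0.39 in docetaxel-resistant cells for the one reported. A further AURKA probe set gave -0.29 in paclitaxel-resistant cells and 0.11 in docetaxel-resistant cells, and none of them was called. A second HMMR probe set gave 0.70 in paclitaxel-resistant cells and 0.71 in docetaxel-resistant cells, where the reported one gave 0.18 in paclitaxel-resistant cells and -0.07 in docetaxel-resistant cells. The second was not called by limma (adjusted p = 0.217 in paclitaxel-resistant and 0.210 in docetaxel-resistant cells). Its mean in sensitive cells, 8.82, was near the low end of the scale.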
